A study of Oryctolagus cuniculus with 16 samples.

Results

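Tissue beside turned copper implants was compared with tissue beside roughened titanium implants in rabbit shin bone, 10 days after placement. The libraries were chosen by their labelled implant type, which gave 4 Turned Cu and 4 SLA Ti libraries of 16 in all. Turned Cu is a copper implant with a machined surface, and SLA Ti is a titanium implant whose surface was sandblasted with large grit and etched with acid. Each of 4 rabbits carried 1 Turned Cu and 1 SLA Ti site, beside 1 site with machined pure titanium (Turned Ti) and 1 drilled Sham site, so the replicate number is the rabbit. Within every rabbit the Turned Cu and SLA Ti sites lay at opposite ends of the tibia, with Turned Cu proximal in rabbits 2 and 4 and distal in rabbits 1 and 3. The sites of a pair were in the same leg in rabbits 2 and 4 and in different legs in rabbits 1 and 3. No source used here gives strain, sex or age. All 4 kinds of site were drilled, so none is intact bone. RNA came from tissue scraped off the wall of the hole, a mixture of cell types in which fewer cells of a type and less RNA per cell cannot be told apart.

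Titanium is the usual metal of bone-anchored implants, because bone grows onto it, and roughening its surface is done to speed that contact. Copper is released from a copper implant as ions that bind sulfur groups in proteins, drive the formation of reactive oxygen and are toxic to bacteria and to host cells. Cells answer excess copper with metallothioneins, with the oxidative stress genes under the factor NRF2 and with heat shock proteins. The comparison asks which of the changes seen beside copper remain when the control is a roughened titanium surface.

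Levels are CPM, read counts scaled to a common effective library size, which is the total counts times edgeR's TMM scaling factor. That factor was 0.706, 0.251, 0.922 and 0.291 in Turned Cu replicates 1 to 4. In SLA Ti replicates 1 to 4 it was 2.55, 2.17, 1.84 and 0.752. The levels given per library, and their order between the groups, therefore depend on this factor. A difference is a log2 fold change ± SE of Turned Cu over SLA Ti, positive where Turned Cu was higher, from edgeR's quasi-likelihood test with the rabbit as a block and n = 4 libraries per group. A gene is said to have risen or fallen where its p, adjusted by Benjamini and Hochberg over all 11617 genes tested, was under 0.05. In all 1859 genes rose and 1801 fell in Turned Cu against SLA Ti, which is 16% and 15.5% of the genes tested, or 31.5% together. The median log2 fold change of all genes was -0.02. In 1552 genes (13.4%) every Turned Cu library lay above every SLA Ti library, and in 1701 (14.6%) every one lay below. Groups that do not overlap, as stated for single genes below, are therefore common among all genes tested. RLE scaling moved that median by -0.11 and gave 1619 higher and 2019 lower genes, so the larger of these counts depends on the scaling. The count of higher genes was 947 without SLA Ti replicate 2, 1010 without Turned Cu replicate 1 and 1127 without SLA Ti replicate 4. With Turned Cu replicates 2 and 4 alone, an alternative chosen after seeing the data, 725 genes were higher and 1424 lower.

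Library totals ran from 8539984 to 20406474 counts in Turned Cu and from 10249480 to 17457473 in SLA Ti. Much of this was ribosomal RNA, and counts on nuclear protein-coding genes ran from 988967 to 1893841 in Turned Cu and from 1730553 to 3765315 in SLA Ti. At 10 counts or more stood 7445 to 8362 genes per library in Turned Cu, against 10045 to 11358 in SLA Ti. Genes with few reads are therefore measured less precisely beside copper. The gene models of ADAMTS12, ATP7B, C1R, CD80, CRLF3, FOSB, GSR, ICAM1, LIF, OAS2, PFKM, SLC11A1, SLC4A1 and SOD3 overlap another model that also holds reads, and no source used here gives the strand setting of the counting, so their values are uncertain. Models with far fewer reads than the named gene also overlap LOX, DLX5, CSRNP1, GSDMD and MSR1, among others. Over all 16 libraries such models held 791 counts against 8782 for LOX and 64 against 983 for DLX5. SLA Ti replicate 3 lay nearest to Turned Cu on the first principal component, at 17.0 against 69.0 to 79 in Turned Cu and -26.4 to -3.08 in the other SLA Ti libraries. In SLA Ti replicate 1 transcripts of bone matrix were scarce and those of eosinophils and fat were abundant, as the values below show.

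Roughened and turned titanium differed in few single genes. Against Turned Ti, SLA Ti had 1 gene higher (0.00861%) and 0 lower of 11617 tested with edgeR, and 958 genes had an unadjusted p under 0.05. The 1 gene (ENSOCUG00000013321, scaffold GL018800) has no symbol in the gene table. DESeq2 called 49 genes and edgeR without the filter on low counts called 193. Without SLA Ti replicate 3, or without the rabbit block, edgeR called 0. The inflammatory lists stood higher in SLA Ti than in Turned Ti, with a median log2 fold change of 2.93 for 8 cytokines and 2.63 for 6 chemokines, but 0 of their genes passed the test. For the chemokine CXCL8 that difference was 6.35 ± 1.54 on the log2 scale, with an adjusted p of 0.558, and for the cyclooxygenase PTGS2 it was 4.37 ± 1.03, with an adjusted p of 0.558. The high values lay in SLA Ti replicates 3 and 4: CXCL8 stood at 4.64, 3.32, 2329 and 59.0 CPM in SLA Ti replicates 1 to 4, and the 6 tested chemokines together at 8.63, 7.11, 2573 and 91.1 CPM.

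Of the copper changes, meaning genes called in the same direction against both Turned Ti and Sham, most were also called against SLA Ti. There were 4100 such genes, 2218 higher and 1882 lower in Turned Cu, and 3098 of them (75.6%) remained, 1639 of the higher (73.9%) and 1459 of the lower genes (77.5%). The same Turned Cu libraries enter all 3 comparisons, so the share describes these libraries and is no independent count. Of the 4100 genes 0 were called in the opposite direction against SLA Ti. Among those that were not called, 1001 still had the same sign against SLA Ti, and 594 had a log2 fold change under 1 in size. A missing call here is therefore no sign that the difference was absent. The 2218 higher genes had a median log2 fold change of 1.5 against SLA Ti and 2.05 against Turned Ti, and the 1882 lower genes one of -2.07 against SLA Ti and -2.39 against Turned Ti. Without SLA Ti replicate 3, 1444 of 1978 higher (73%) and 1623 of 2253 lower copper changes (72%) remained. Leaving out SLA Ti replicate 2 gave the lowest share, 53.9%.

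The SLA Ti libraries reached into the copper range to different degrees. SLA Ti replicate 3 lay at or above the lowest Turned Cu library in 785 of the 2218 genes that were higher beside copper (35.4%), against 268 (12.1%) for replicate 1, 72 (3.25%) for replicate 2 and 262 (11.8%) for replicate 4. For the 1882 genes that were lower beside copper the shares of the 4 SLA Ti libraries were 14.7%, 3.13%, 12.4% and 14.6%, so replicate 3 did not stand out there. Mitochondrial transcripts also set libraries apart. They made up 35.9%, 76.4%, 21.5% and 68.8% of protein-coding counts in Turned Cu replicates 1 to 4, against 15.7%, 19.4%, 13.3% and 35.2% in SLA Ti replicates 1 to 4. Both Turned Cu libraries above 60% came from proximal sites, which were those of rabbits 2 and 4. In SLA Ti the sites of rabbits 2 and 4 were distal and had the higher shares, 19.4% and 35.2% against 15.7% and 13.3%. Tibial end and rabbit cannot be told apart within either group.

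**Figure D1:**
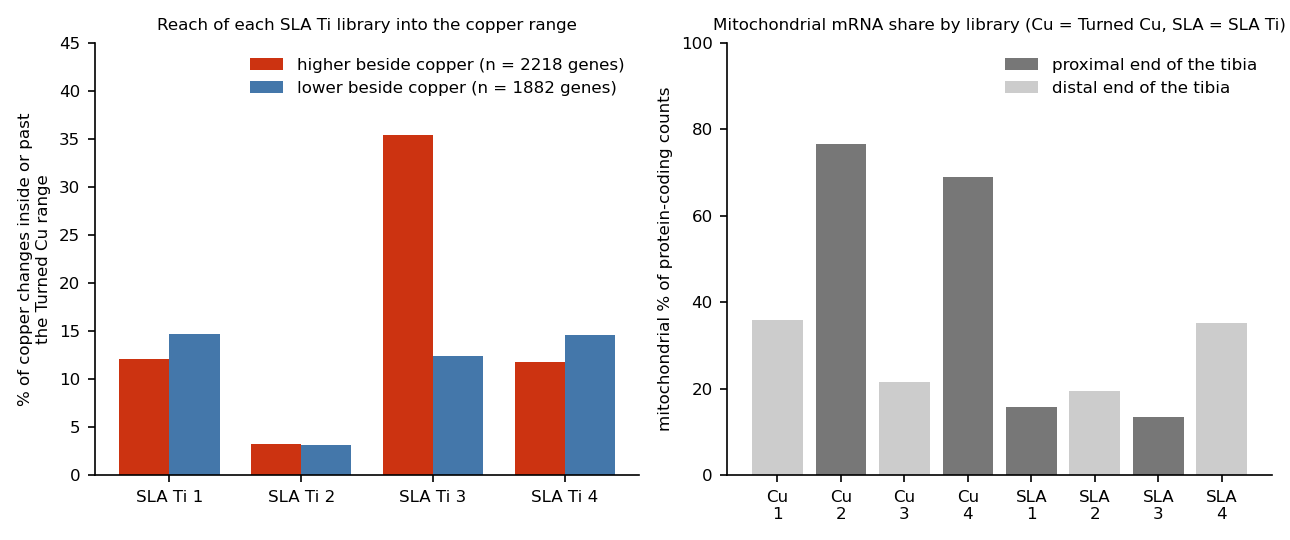
Left, for each SLA Ti library, the percentage of copper changes in which it lay inside or past the range of the 4 Turned Cu libraries, for genes higher (red) and lower (blue) beside copper. Right, mitochondrial mRNA as a percentage of protein-coding counts in each Turned Cu and SLA Ti library, shaded by the end of the tibia. SLA Ti replicate 3 reaches 35.4% of the genes higher beside copper, and the Turned Cu libraries at 76.4% and 68.8% are both proximal. These are from rabbits 2 and 4, whose SLA Ti libraries are distal and have the higher shares in that group.

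Metallothioneins were higher in every Turned Cu library than in any SLA Ti library. MT1A, a metallothionein that binds zinc and copper (ENSOCUG00000029235, chromosome 5, 12927625 to 12936574), had 122, 219, 104 and 162 CPM in Turned Cu replicates 1 to 4, against 2.00, 3.13, 5.50 and 8.00 CPM in SLA Ti replicates 1 to 4. The groups did not overlap, and MT1A rose by 5.13 ± 0.50 on the log2 scale (adjusted p = 4e-05). MT2A, a second metallothionein, had 24.8, 32.4, 27.4 and 39.9 CPM in Turned Cu and 0.153, 0.789, 0.411 and 1.98 CPM in SLA Ti and rose by 5.32 ± 0.88 (adjusted p = 7.35e-04). Metallothionein genes are near copies of each other, so the split of reads between them is uncertain. MTF1, the factor that switches metallothioneins on when metal is in excess, rose by 1.05 ± 0.32 (adjusted p = 0.0214), a call that was lost in every leave-one-out fit but that without SLA Ti replicate 3. SLC30A1, a zinc exporter and target of MTF1, had 3.01, 4.49, 4.84 and 6.03 CPM in Turned Cu and 0.921, 2.14, 2.83 and 1.37 CPM in SLA Ti and did not pass (log2 fold change 1.36 ± 0.58, adjusted p = 0.0875).

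Besides MT1A, MT2A and MTF1, the only further gene of the copper handling list that rose was COX17, which hands copper to the respiratory chain. No value of COX17 with a library left out is given here. The other genes of this list described below fell, and their gene models overlap others. ATP7B, a copper-pumping ATPase, fell by 3.39 ± 0.77 with 0, 0, 1.15 and 0 CPM in Turned Cu against 4.11, 3.82, 2.57 and 3.05 CPM in SLA Ti. Without Turned Cu replicate 3 the fit gave ATP7B a value of -9.07 ± 0.95. The remaining Turned Cu libraries held 0 counts, so that size was not measured. SOD3, the secreted copper-zinc superoxide dismutase, held 2 counts in all Turned Cu libraries and 496 in SLA Ti. It fell (adjusted p = 0.00172), with a ratio of Turned Cu over SLA Ti of 0.0139 and a counting interval of 0.00168 to 0.0506. The copper chaperone ATOX1 fell by 3.12 ± 0.44, but its gene model (chromosome 3, 33117791 to 33199104) overlaps nearly the whole of SPARC (33118284 to 33194803), a bone matrix gene that fell by 2.77 ± 0.47, so the reads of these genes cannot be told apart. Of 20 tested genes for metallothioneins and copper handling, 4 rose, 4 fell and 12 did not pass, with a median log2 fold change of -0.21. That is 40% called in either direction, near the 31.5% of all genes tested, of which 16% rose and 15.5% fell. In all leave-one-out fits but that without SLA Ti replicate 3, the number that rose was 2, so some of these calls depend on the libraries used. SLA Ti replicate 3 lay at or above the lowest Turned Cu library in 14 of the 20 tested genes, against 9144 of all 11617. Among genes that rose it did so in 0 of these 4 and in 461 of all 1859 (24.8%). Genes that rose were called with that library included, and 4 genes are too few to compare with that share.

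Oxidative stress genes of the NRF2 program rose together with the metallothioneins. HMOX1, the haem-degrading enzyme haem oxygenase 1 (ENSOCUG00000010633, chromosome 4, 86061604 to 86066620), had 1032, 1242, 2319.7 and 854 CPM in Turned Cu replicates 1 to 4, against 13.9, 16.6, 17.8 and 21.9 CPM in SLA Ti replicates 1 to 4. It rose by 6.30 ± 0.74 (adjusted p = 1.04e-04), and SLA Ti replicate 3 lay among the other SLA Ti libraries. Of 21 tested antioxidant and NRF2 target genes, 15 rose, 0 fell and 6 did not pass, with a median of 1.72. FTL, the light chain of the iron store ferritin, stood at 3085 ± 813 CPM in Turned Cu and 487 ± 221 CPM in SLA Ti (SD, n = 4 each) and rose by 2.73 ± 0.45. TXNRD1, which reduces thioredoxin, rose by 2.66 ± 0.31, its substrate TXN by 2.41 ± 0.41, and the glutathione reductase GSR by 1.92 ± 0.27. Over all 21 tested genes, SLA Ti replicate 3 lay at or above the lowest Turned Cu library in 4, and in 0 of the 15 that rose. Those 15 were called with that library included, so the count of 0 is partly set by the call.

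Chaperone genes rose in part. HSP90AA1, the inducible form of the chaperone HSP90, had 1087, 821, 1108 and 1126 CPM in Turned Cu and 171, 126, 122 and 181 CPM in SLA Ti, without overlap, and rose by 2.78 ± 0.33 (adjusted p = 1.30e-04). HSPA8, a member of the HSP70 family, rose by 2.31 ± 0.37, its exchange factor HSPH1 by 2.08 ± 0.34, the co-chaperone BAG3 by 1.98 ± 0.29 and the small heat shock protein HSPB1 by 1.82 ± 0.31. Of 20 tested heat shock and chaperone genes 10 rose, 0 fell and 10 did not pass, and the median was 0.88. Of the integrated stress response, the program that slows translation in stressed cells, 9 of 17 tested genes rose, 2 fell and 6 did not pass. ATF3, one of its transcription factors, rose by 3.40 ± 0.58 (2.81 ± 0.61 without Turned Cu replicate 4) with 14.8, 19.5, 12.5 and 19.1 CPM in Turned Cu against 1.80, 2.11, 1.18 and 1.52 CPM in SLA Ti. DDIT3, the factor CHOP that can turn stress into cell death, had 163, 123, 314 and 93.3 CPM in Turned Cu and 13.8, 4.64, 93.9 and 8.99 CPM in SLA Ti. Here SLA Ti replicate 3 lay just above the lowest Turned Cu library, and the rise of 3.02 ± 0.62 was 4.02 ± 0.51 without that library. SLC7A5 and SLC3A2, which together form an amino acid transporter, rose by 3.16 ± 0.74 and 2.34 ± 0.51, and by 4.32 ± 0.57 and 3.03 ± 0.44 without SLA Ti replicate 3.

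**Figure D2:**
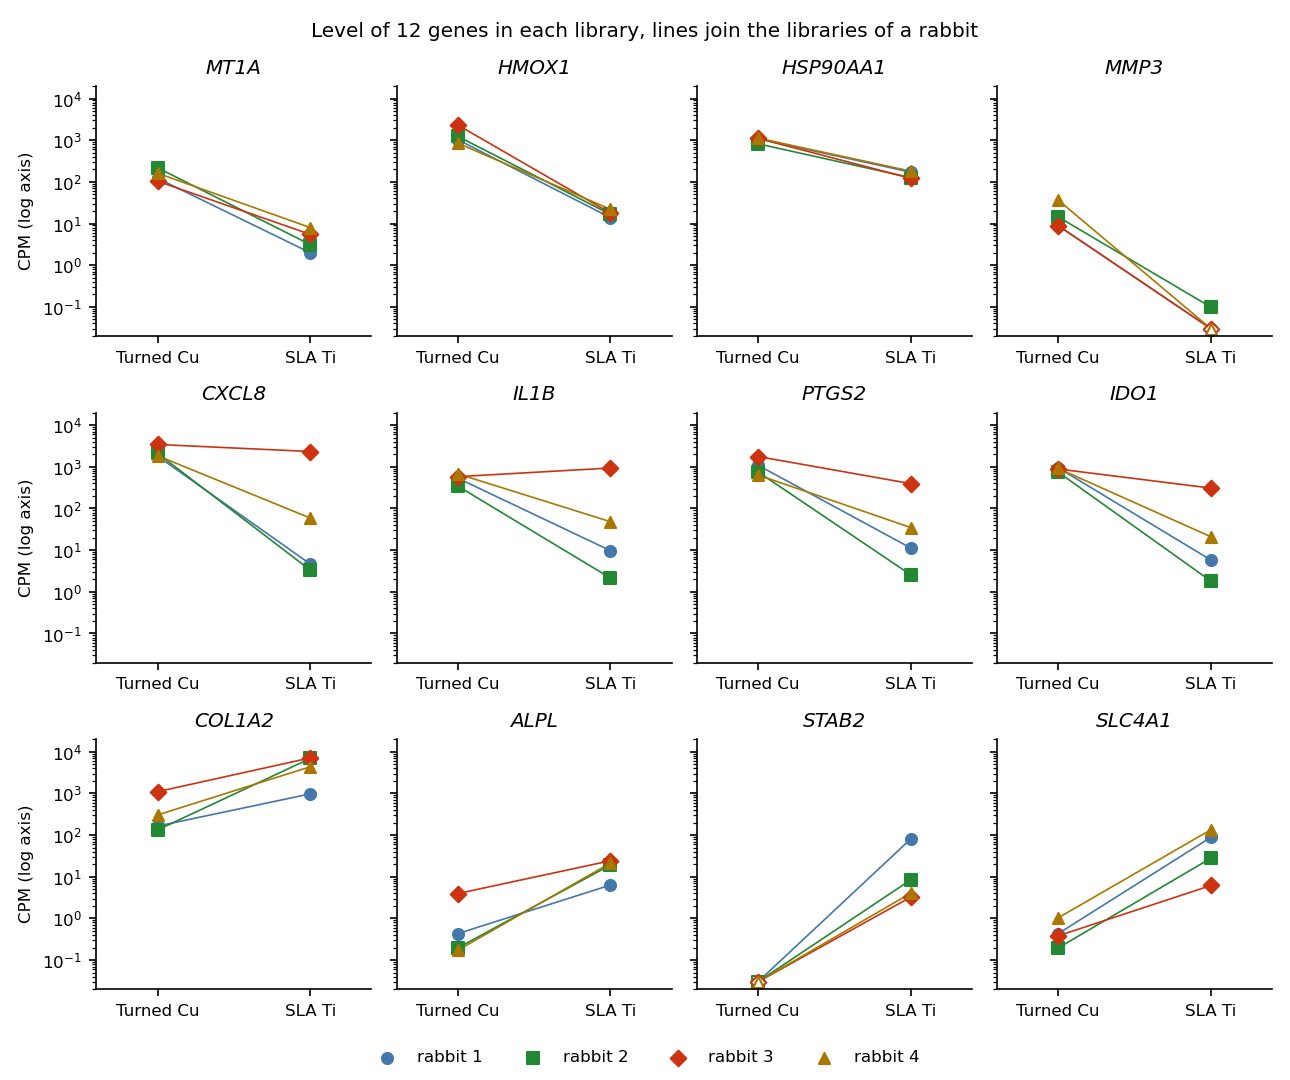
CPM (log axis, shared by all panels) of 12 genes in the 4 Turned Cu (left) and 4 SLA Ti libraries (right of each panel), with lines joining the libraries of a rabbit and open symbols for a count of 0. In MT1A, HMOX1, HSP90AA1 and MMP3 Turned Cu is higher in all 4 rabbits, in CXCL8, IL1B, PTGS2 and IDO1 rabbit 3 (red) stays high in SLA Ti, and COL1A2, ALPL, STAB2 and SLC4A1 are lower in Turned Cu in all 4 rabbits.

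Inflammatory mediators rose against SLA Ti as well, with SLA Ti replicate 3 inside or near the range of the copper libraries for several of them. The neutrophil attractant CXCL8 (ENSOCUG00000011835, chromosome 15, 76368959 to 76371691) had 1811, 2112, 3438 and 1849 CPM in Turned Cu replicates 1 to 4, against 4.64, 3.32, 2329 and 59.0 CPM in SLA Ti replicates 1 to 4. SLA Ti replicate 3 lay inside the Turned Cu range. The rise was 4.44 ± 1.46 on the log2 scale (adjusted p = 0.0305). Without SLA Ti replicate 3 it was 6.91 ± 1.05 (adjusted p = 4.16e-04), without the rabbit block 1.94 ± 1.29 (adjusted p = 0.270), and leaving out any of SLA Ti replicates 1, 2 and 4 or Turned Cu replicates 1, 2 and 4 ended the call. IL1B, the fever-inducing cytokine interleukin 1 beta, had 534, 346, 580.3 and 678 CPM in Turned Cu, against 9.71, 2.14, 936 and 48.2 CPM in SLA Ti, where replicate 3 was the highest of all 8 libraries. Its rise was 3.57 ± 1.30 (adjusted p = 0.0472), 5.18 ± 0.93 without SLA Ti replicate 3 (adjusted p = 0.00115) and 1.10 ± 1.21 without the block (adjusted p = 0.527), and RLE scaling ended the call (adjusted p = 0.0531). The call of IL1B was also lost without SLA Ti replicate 1, 2 or 4, without Turned Cu replicate 1, 2 or 4 and without ribosomal and mitochondrial genes.

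PTGS2, the inducible cyclooxygenase, did not overlap. It had 1093, 757, 1768 and 638 CPM in Turned Cu and 11.3, 2.57, 395 and 34.9 CPM in SLA Ti and rose by 4.52 ± 1.02 (adjusted p = 0.00419), or by 5.91 ± 0.94 without SLA Ti replicate 3. TNF, a cytokine of activated macrophages, had 20.5, 7.42, 9.29 and 7.40 CPM in Turned Cu and 0.230, 0.362, 6.01 and 3.43 CPM in SLA Ti and rose by 2.7 ± 0.91 (adjusted p = 0.0348), a call lost without Turned Cu replicate 1 or 2 or SLA Ti replicate 1, 2 or 4. Its value was 1.34 ± 0.70 without Turned Cu replicate 1 and 3.77 ± 0.99 without SLA Ti replicate 3. IL6, an inducer of the acute phase, was low in both groups, at 1.0, 0.781, 2.42 and 2.41 CPM in Turned Cu and 0.0384, 0.164, 1.18 and 6.25 CPM in SLA Ti, with its highest value in SLA Ti replicate 4, and did not pass (0.87 ± 0.79, adjusted p = 0.432). IL1RN, the natural blocker of the interleukin 1 receptor, had 1923, 1453, 1834 and 1073 CPM in Turned Cu and 7.75, 19.5, 489.8 and 53.7 CPM in SLA Ti and rose by 4.19 ± 0.99, or 5.77 ± 0.84 without SLA Ti replicate 3.

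Among the growth factors, CSF1, which keeps macrophages and osteoclasts alive, had 489, 184, 308 and 306 CPM in Turned Cu, against 17.3, 14.5, 22.2 and 28.4 CPM in SLA Ti. No SLA Ti library came near copper, and CSF1 rose by 3.90 ± 0.40 (adjusted p = 5.46e-05). LIF rose by 3.76 ± 0.78 (4.50 ± 0.85 without SLA Ti replicate 3) and INHBA, a subunit of activin A, by 2.46 ± 0.55. In total 6 of 8 tested inflammatory cytokines rose, 0 fell and IL1A and IL6 did not pass, with a median of 3.14 against SLA Ti and 5.04 against Turned Ti. Of 6 tested chemokines 4 rose. CCL4, which attracts monocytes, rose by 5.60 ± 1.26 (7.47 ± 0.86 without SLA Ti replicate 3), CCL2 by 2.43 ± 0.56 and the interferon-induced CXCL10 by 3.90 ± 0.89, at no more than 3.44 CPM. CXCL5 (1.88 ± 0.98, adjusted p = 0.159) and CX3CL1 did not pass. CXCL5 passed without SLA Ti replicate 3 (3.34 ± 0.98, adjusted p = 0.0197), with terms for the tibial end and leg (adjusted p = 0.0310) and without the filter on low counts (adjusted p = 0.0417). IL1A (1.72 ± 1.04, adjusted p = 0.233) and CXCL5 are named here after their values were seen. Lipid mediators split by enzyme. The thromboxane synthase TBXAS1 rose by 2.85 ± 0.57, the prostacyclin receptor PTGIR by 3.11 ± 0.91 and the phospholipase PLA2G4A by 2.48 ± 0.52, whereas PTGS1, the constitutive cyclooxygenase, fell by 3.76 ± 0.98. Without the block the rise of PTGIR was 2.06 ± 0.88 and did not pass (adjusted p = 0.0820). The call of PTGIR was also lost without SLA Ti replicate 1, 2 or 4, and without SLA Ti replicate 3 its rise was 4.73 ± 0.59. Without Turned Cu replicate 3 the fit gave PTGS1 a value of -8.70 ± 1.74, but the remaining Turned Cu libraries held 0 counts. The size of that fall was therefore not measured. Of 14 tested genes of this list 5 rose, 3 fell and 6 did not pass, and the number that rose was 3 without SLA Ti replicate 1, 2 or 4.

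Interferon response and antigen presentation genes rose in part. Of 25 tested interferon response genes 18 rose, 0 fell and 7 did not pass, with a median of 2.14 against SLA Ti and 2.24 against Turned Ti. OAS2, a sensor of double-stranded RNA, had 17.2, 20.3, 8.53 and 14.3 CPM in Turned Cu, against 1.73, 1.91, 1.70 and 1.37 CPM in SLA Ti, and rose by 3.09 ± 0.37 (adjusted p = 1.14e-04). The interferon regulatory factor IRF1 rose by 3.20 ± 0.51, IFIT2 by 2.66 ± 0.44 and the antiviral enzyme RSAD2 by 3.74 ± 0.75 (4.56 ± 0.76 without SLA Ti replicate 3). IDO1, which breaks down tryptophan and answers to interferon gamma, had 947, 746, 886 and 915 CPM in Turned Cu and 5.79, 1.81, 309 and 21.0 CPM in SLA Ti and rose by 5.58 ± 1.22 (adjusted p = 0.00361), or 3.37 ± 1.28 without the block, where it did not pass (adjusted p = 0.0540). Without SLA Ti replicate 3 the rise of IDO1 was 6.43 ± 1.19, and without Turned Cu replicate 1 it was 4.36 ± 1.16. Of 20 tested antigen presentation genes 13 rose, 0 fell and 7 did not pass, with a median of 1.49 against SLA Ti and 2.34 against Turned Ti. The number that rose was 8 without Turned Cu replicate 1 and 7 without SLA Ti replicate 2. B2M, the shared light chain of MHC class I, stood at 732 ± 134 CPM in Turned Cu and 54.5 ± 68.4 CPM in SLA Ti (SD, n = 4 each) and rose by 4.21 ± 0.68 (4.98 ± 0.56 without SLA Ti replicate 3). CD83 and CD80, carried by mature antigen-presenting cells, rose by 2.88 ± 0.39 and 3.17 ± 0.53.

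Receptors that sense microbes and damage and the NF-kappa-B pathway below them rose in part. Of 21 tested pattern recognition genes 11 rose, 0 fell and 10 did not pass, a number that was 5 without Turned Cu replicate 1 and 6 without SLA Ti replicate 2. TLR4, the receptor for endotoxin, had 284, 219, 308 and 177 CPM in Turned Cu and 17.7, 18.1, 120.4 and 28.2 CPM in SLA Ti and rose by 2.72 ± 0.49. The lectin receptors CLEC4E and CLEC5A rose by 2.97 ± 0.59 and 3.10 ± 0.58, and the signalling kinase IRAK2 by 3.85 ± 0.58. The rises of TLR4, CLEC4E and CLEC5A were 3.36 ± 0.40, 3.65 ± 0.54 and 4.01 ± 0.44 without SLA Ti replicate 3. Of 22 tested NF-kappa-B genes 11 rose, 1 fell and 10 did not pass, and 7 rose without Turned Cu replicate 1 and 6 without SLA Ti replicate 2. Among those that rose were NFKB2 (1.86 ± 0.40), the inhibitors NFKBID (2.96 ± 0.45) and NFKBIE (1.93 ± 0.39) and the adhesion molecule ICAM1 (1.37 ± 0.29). The immediate early genes, which switch on within minutes of a stimulus, held 16 of 23 tested genes that rose and 1 that fell. NR4A2, a nuclear receptor of this class, had 158, 73.2, 155 and 88.1 CPM in Turned Cu and 1.92, 0.855, 12.3 and 2.44 CPM in SLA Ti and rose by 5.15 ± 0.63 (adjusted p = 1.35e-04). NR4A3 rose by 4.57 ± 1.08, MAFF by 4.59 ± 0.80, EGR3 by 3.70 ± 0.55 and FOSB by 3.11 ± 0.59. Leaving out SLA Ti replicate 3 gave rises of 6.02 ± 0.55 for NR4A2, 6.37 ± 0.83 for NR4A3 and 5.82 ± 0.76 for MAFF. Other genes among the highest rises belong to no list. The nuclear protein CSRNP1 rose by 4.26 ± 0.85 (5.72 ± 0.63 without SLA Ti replicate 3). SLC11A1, a metal ion pump of the phagosome membrane, rose by 4.72 ± 0.78, and RTN4RL1, known from neurons, rose by 4.40 ± 0.49 with 17.7, 43.5, 61.0 and 25 CPM in Turned Cu against 1.5, 2.7, 1.03 and 1.45 CPM in SLA Ti. WDR77, a subunit of an arginine methyltransferase complex, rose by 4.62 ± 0.52, but its model overlaps another gene without a symbol.

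**Figure D3:**
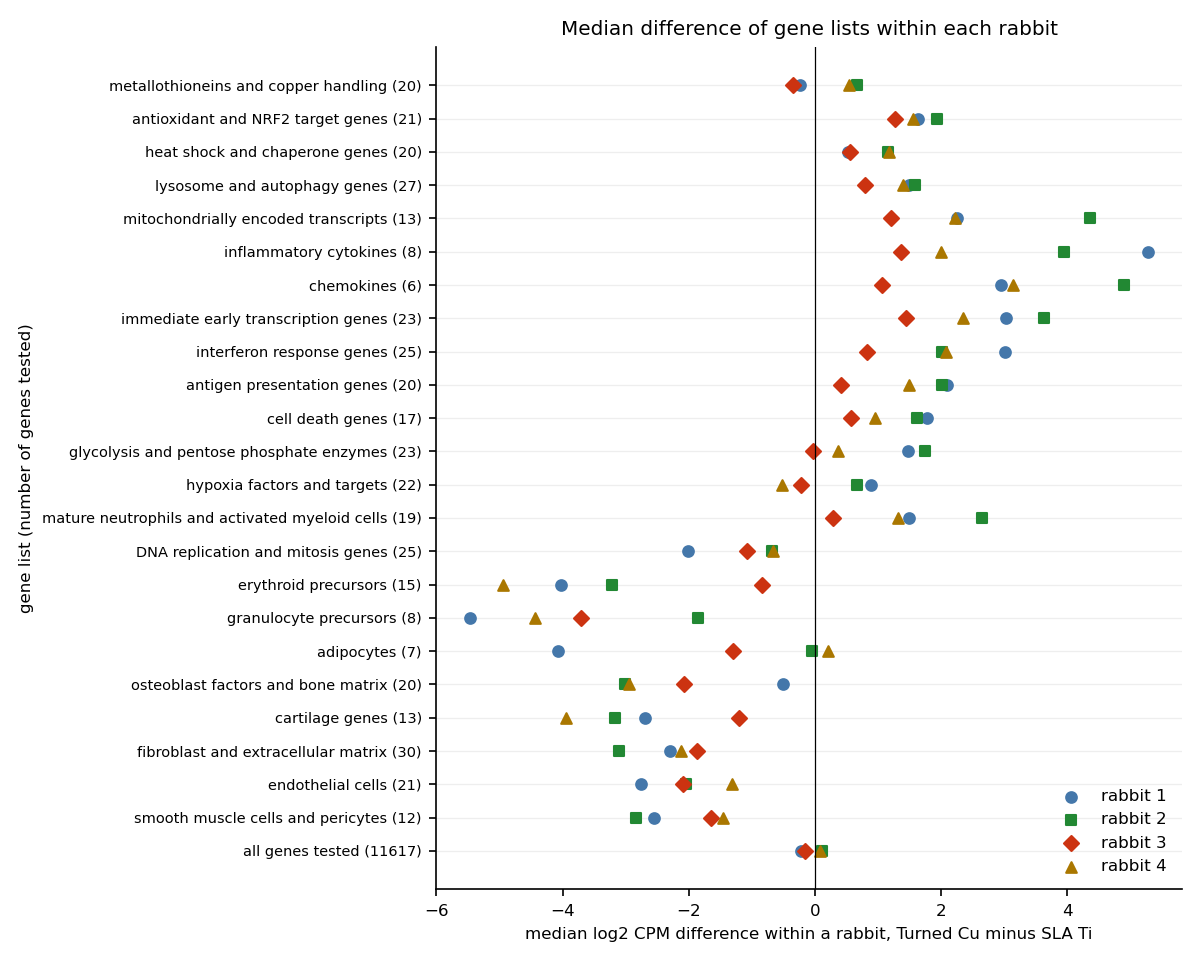
Median log2 CPM difference, Turned Cu minus SLA Ti, of the tested genes of 23 lists and of all genes, within each of the 4 rabbits (symbols). Rabbit 3 (red) has a median of 1.28 for antioxidant genes, close to the 1.55 to 1.94 of the other rabbits, and one of -0.03 for glycolysis against 0.37 to 1.76 in the others.

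Differences within a single rabbit rest on 2 libraries. Within rabbit 3 the median difference of the 8 tested cytokines was 1.37 on the log2 scale, against 5.29, 3.96 and 2.00 in rabbits 1, 2 and 4, and that of 6 chemokines 1.06 against 2.95, 4.91 and 3.15. For the 21 antioxidant genes it was 1.28 in rabbit 3, against 1.64, 1.94 and 1.55, and for 13 mitochondrial transcripts 1.21, against 2.26, 4.37 and 2.22. For the mitochondrial transcripts the lower value of rabbit 3 goes with its copper library. Their summed level was 66224 CPM in Turned Cu replicate 3, the lowest of the Turned Cu libraries, against 26335 CPM in SLA Ti replicate 3, which lies between SLA Ti replicates 1 and 2 (22761 and 29816 CPM). Why rabbit 3 differs was not tested.

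Many copper changes in glycolysis and the response to low oxygen were not called against SLA Ti. Of 23 tested glycolysis and pentose phosphate genes 16 were copper changes and 8 remained against SLA Ti, and of 22 hypoxia genes 10 were copper changes and 3 remained. PKM, the last enzyme of glycolysis, had 531, 374, 466 and 399.5 CPM in Turned Cu and 38.9, 52.0, 212 and 117 CPM in SLA Ti and rose by 2.28 ± 0.43 (adjusted p = 0.00146). GAPDH, often used as a constant control gene, had 435, 439.8, 445 and 362 CPM in Turned Cu and 79.3, 102, 343 and 196 CPM in SLA Ti and rose by 1.38 ± 0.39 (adjusted p = 0.0152), a call lost without Turned Cu replicate 1 or 2 or SLA Ti replicate 1 or 2. The glucose carrier SLC2A3 rose by 3.12 ± 0.74 and PFKFB3, which speeds glycolysis, by 1.73 ± 0.50, while the muscle-type enzyme PFKM fell by 1.44 ± 0.35. For SLC2A3 the value without the block was 2.23 ± 0.84 and did not pass (adjusted p = 0.0524), and without SLA Ti replicate 3 it was 3.96 ± 0.66. The call of PFKFB3 was lost without Turned Cu replicate 1 or 2 or SLA Ti replicate 2 or 4. In total 7 glycolysis genes rose, 2 fell and 14 did not pass, and the number that rose was 2 or 3 when any 1 of Turned Cu replicates 1 and 2 or SLA Ti replicates 1, 2 and 4 was left out. Among hypoxia genes EGLN2, an oxygen-sensing hydroxylase, rose by 1.28 ± 0.29, and the collagen-modifying enzymes LOX and P4HA2 and the targets CA12 and ANGPTL4 fell by 2.81 ± 0.66, 2.53 ± 0.53, 3.54 ± 1.06 and 1.77 ± 0.55. The share called in either direction was 39.1% of the glycolysis genes and 22.7% of the hypoxia genes, against 31.5% of all genes tested. CA12 did not pass without the block (adjusted p = 0.0660), without Turned Cu replicate 3 or without SLA Ti replicate 4, ANGPTL4 did not pass without Turned Cu replicate 3, and 2 hypoxia genes fell without Turned Cu replicate 3.

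Named among the copper changes that did not remain are the 8 of smallest p against Turned Ti whose log2 fold change against SLA Ti was under 1 in size. KLF6, an early response factor, had 91.6, 41.8, 82.9 and 33.7 CPM in Turned Cu and 42.6, 19.6, 53.9 and 31.5 CPM in SLA Ti, with a log2 fold change of 0.76 ± 0.31 (adjusted p = 0.0741) against 1.55 ± 0.32 for Turned Cu over Turned Ti. TNFAIP3, the NF-kappa-B brake A20, had 55.0, 18.7, 35.1 and 17.0 CPM in Turned Cu and 14.4, 7.04, 17.3 and 38.2 CPM in SLA Ti, where replicate 4 was higher than 3 Turned Cu libraries (0.79 ± 0.44, adjusted p = 0.185). CRLF3 (0.84 ± 0.32), ITGB7 (0.87 ± 0.36), SNX20 (0.97 ± 0.37) and PPP4C (0.81 ± 0.34) had positive values, and the factor MEF2C (-0.87 ± 0.34) and PDE4DIP (-0.68 ± 0.33) negative ones. ITGB7, an integrin chain of lymphocytes, was still higher in every Turned Cu library than in every SLA Ti library. Some of these passed under other settings, MEF2C with RLE scaling (adjusted p = 0.0308), with DESeq2, without the filter, without ribosomal and mitochondrial genes and without Turned Cu replicate 4. PPP4C passed without SLA Ti replicate 3 (1.10 ± 0.33, adjusted p = 0.0207), TNFAIP3 without SLA Ti replicate 4 (adjusted p = 0.0465), and PDE4DIP with DESeq2 (adjusted p = 0.0473) and without Turned Cu replicate 4 (adjusted p = 0.0350). The opposite class, genes called against SLA Ti but against neither Turned Ti nor Sham, held 77 higher and 141 lower genes.

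**Figure D4:**
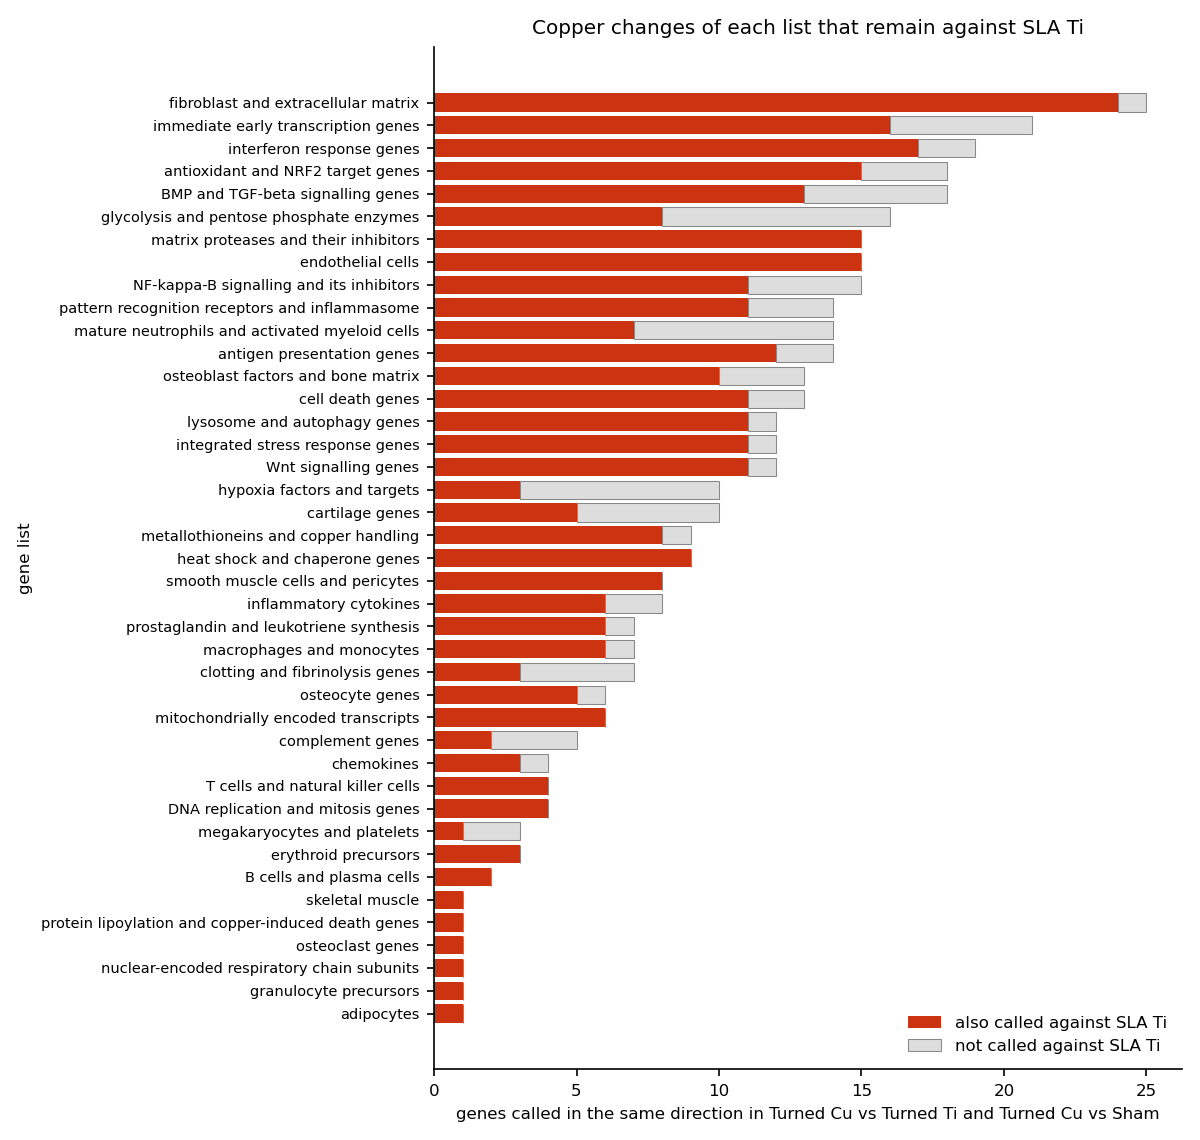
For each gene list, the number of genes called in the same direction in Turned Cu against Turned Ti and against Sham, split into those also called against SLA Ti (red) and those not called (grey). All 15 such genes of the matrix protease and of the endothelial list remain in the fit of all libraries, and 8 of 16 glycolysis and 3 of 10 hypoxia genes.

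Among those 218 genes the 6 with a symbol and the smallest p all fell. C1QA, a chain of the complement starter C1q made by resident macrophages, had 0, 1.56, 0.764 and 0.172 CPM in Turned Cu and 10.3, 2.73, 16.6 and 2.67 CPM in SLA Ti and fell by 3.76 ± 0.84 (adjusted p = 0.00414), with a value of -4.94 ± 0.92 without Turned Cu replicate 2. The partner chain C1QC, outside those 6, fell by 3.06 ± 0.66. The histone genes H2AC6 and H2BC4 fell by 1.55 ± 0.34 and 1.32 ± 0.32, the cell cycle factor TFDP2 by 2.44 ± 0.61, ESYT1 by 1.30 ± 0.30 and TMEM62 by 1.92 ± 0.41. Of 14 tested complement genes 0 rose, 6 fell and 8 did not pass, with C1R (-1.93 ± 0.36) and the C1 inhibitor SERPING1 (-1.68 ± 0.48) among those that fell. That number was 3 without SLA Ti replicate 1, where the call of SERPING1 was lost.

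Macrophage markers moved in both directions. CD68, a lysosomal protein of macrophages, had 365, 648, 588 and 398 CPM in Turned Cu and 10.1, 53.0, 125 and 53.3 CPM in SLA Ti and rose by 3.13 ± 0.61 (adjusted p = 0.00179). The scavenger receptor MSR1 rose by 2.57 ± 0.51 and the adaptor TYROBP by 1.78 ± 0.33. In total 8 of 19 tested macrophage and monocyte genes rose, 3 fell and 8 did not pass, and the 3 that fell were the C1q chains C1QA, C1QB and C1QC. The number that rose was 5 without Turned Cu replicate 2 or SLA Ti replicate 1 or 4, and 4 without SLA Ti replicate 2. The summed level of the list ran from 1180 to 2400 CPM in Turned Cu and from 259 to 632 CPM in SLA Ti. Lysosome genes rose in part. Of 27 tested lysosome and autophagy genes 16 rose and 0 fell, with a median of 1.39. ATP6V0D1, part of the proton pump that acidifies lysosomes, had 111, 99.5, 119 and 88.7 CPM in Turned Cu and 20.4, 16.7, 50.5 and 18.9 CPM in SLA Ti and rose by 2.09 ± 0.29. LAMP1, a lysosome membrane protein, rose by 1.55 ± 0.29.

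The summed level of neutrophil genes overlapped between the groups. It ran from 1660 to 3070 CPM in Turned Cu and was 1587, 241, 3248 and 1165 CPM in SLA Ti replicates 1 to 4. Of 19 tested genes 6 rose, 2 fell and 11 did not pass, and 7 of 14 copper changes remained. MXD1 rose by 2.65 ± 0.78 (1.94 ± 0.82 without the block, adjusted p = 0.0801) and the adhesion receptor ADGRE5 by 1.54 ± 0.37. The call of MXD1 was lost in every leave-one-out fit but those without Turned Cu replicate 3, Turned Cu replicate 4 or SLA Ti replicate 3 (3.49 ± 0.76), and that of ADGRE5 without Turned Cu replicate 3 or SLA Ti replicate 2. LCN2, an iron-binding granule protein made early in neutrophil development, had 3.01, 9.76, 8.79 and 7.23 CPM in Turned Cu and 640.2, 40.7, 470.0 and 426 CPM in SLA Ti and fell by 5.16 ± 1.43 (adjusted p = 0.0133), with a value of -6.70 ± 1.44 without Turned Cu replicate 2. The number that rose changed with the fit, from 1 to 6 over the leave-one-out fits and 3 without the block. Within Turned Cu the summed level followed the order of the nuclear protein-coding counts and the reverse order of the mitochondrial share. In SLA Ti replicate 2 had the most such counts (3765315) and the lowest sum. The part of depth, of mitochondrial share and of SLA Ti replicate 3 in these levels was not tested.

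Genes of marrow precursors fell in part, and few of them were copper changes. Of 8 tested granulocyte precursor genes 0 rose and 4 fell, and 1 was a copper change. Their summed level was 53.7 to 126 CPM in Turned Cu and 1778, 78.7, 786 and 572 CPM in SLA Ti replicates 1 to 4, so SLA Ti replicate 2 lay inside the Turned Cu range. The Turned Cu libraries lay inside the range of Sham, 7.27 to 355 CPM. MPO, the peroxidase of young neutrophils, had 0.718, 0, 1.78 and 0 CPM in Turned Cu, against 54.7, 6.97, 27.6 and 59.8 CPM in SLA Ti, and fell by 5.80 ± 1.31 (adjusted p = 0.00435), with a value of -7.39 ± 1.72 without Turned Cu replicate 3. EPX, the peroxidase of eosinophils, had 0 counts in all 4 Turned Cu libraries and 425, 0.954, 44.3 and 22.8 CPM in SLA Ti. With a floor of 3 counts over the group, EPX was at least 1183-fold lower in Turned Cu, a bound that was 162-fold without SLA Ti replicate 1, an alternative chosen after seeing the data. The antimicrobial peptide CAMP fell by 4.52 ± 1.31, a call lost without Turned Cu replicate 1, and its value was -6.14 ± 1.29 without Turned Cu replicate 2. Of 15 tested erythroid genes 0 rose and 11 fell, with a median of -3.63. SLC4A1, the anion exchanger of the red cell membrane (ENSOCUG00000004499, chromosome 19, 44560251 to 44573628), had 0.431, 0.195, 0.382 and 1.03 CPM in Turned Cu and 88.5, 27.9, 6.17 and 134 CPM in SLA Ti and fell by 7.06 ± 0.81 (adjusted p = 9.58e-05). The groups did not overlap. SPTB, a spectrin under that membrane, fell by 6.89 ± 1.16, the erythropoietin receptor EPOR by 3.63 ± 0.78 and the last enzyme of haem synthesis, FECH, by 2.42 ± 0.42. Without Turned Cu replicate 1 the value of SPTB was -8.86 ± 1.65, and without Turned Cu replicate 3 that of EPOR was -5.32 ± 0.74. Of the 15 erythroid genes 3 were copper changes, and all 3 remained. ITGA2B, an integrin of platelets and their precursors, fell to a ratio of 0.0256 (counting interval 0.00526 to 0.0754). THBS1, a platelet and matrix protein, was higher in every Turned Cu library than in any SLA Ti library but did not pass (1.61 ± 0.61, adjusted p = 0.0566), and passed without the block (1.97 ± 0.61, adjusted p = 0.0221).

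More genes of dividing cells fell than rose. Of 25 tested DNA replication and mitosis genes 2 rose and 13 fell, and 4 were copper changes. FOXM1, the driver of mitotic genes, had 1.15, 2.54, 0.764 and 2.24 CPM in Turned Cu and 14.5, 8.32, 3.96 and 18.1 CPM in SLA Ti and fell by 2.66 ± 0.50. The kinase PLK1 and the spindle motor KIF11 fell by 2.2 ± 0.42 and 1.55 ± 0.44. MCM5 and CDC6, which license replication origins, rose by 2.02 ± 0.35 and 1.86 ± 0.46. Without SLA Ti replicate 1 the number that fell was 2, and without Turned Cu replicate 1 it was 6. The call of KIF11 was lost without SLA Ti replicate 1 and that of CDC6 without Turned Cu replicate 1 or 3. Lymphocyte genes were sparse. CD5 and IL7R rose by 2.21 ± 0.54 and 2.22 ± 0.60, among 4 of 7 tested T cell genes that rose and 0 that fell, a number that was 1 without SLA Ti replicate 2 and 2 without Turned Cu replicate 1 or 3 or SLA Ti replicate 3. The call of IL7R was lost without Turned Cu replicate 2 or SLA Ti replicate 2. Of 13 B cell genes 1 rose, the receptor CD22 (2.09 ± 0.36), and 1 fell, the factor EBF1 (-2.94 ± 0.43), which fat and stromal cells also express. That is 15.4% of the B cell genes tested, below the 31.5% of all genes.

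Bone formation genes fell or did not pass, apart from 1 that rose. Of 20 tested osteoblast genes 9 fell, 1 rose and 10 did not pass, with a median of -2.82, and 10 of 13 copper changes remained. COL1A2 (ENSOCUG00000012264, chromosome 10, 34497959 to 34533850), which codes for part of the main collagen of bone, had 164, 133, 1099.8 and 303 CPM in Turned Cu replicates 1 to 4, against 975, 6915, 7115 and 4364 CPM in SLA Ti replicates 1 to 4. The groups overlapped, since SLA Ti replicate 1 lay below Turned Cu replicate 3, but Turned Cu was lower in all 4 rabbits and COL1A2 fell by 3.56 ± 0.74 (adjusted p = 0.00259). COL1A1, the other chain, had 188, 73.2, 1387 and 267 CPM in Turned Cu and 702, 4598, 3432 and 6790.4 CPM in SLA Ti and fell by 3.01 ± 0.90 (adjusted p = 0.0193), a call lost without Turned Cu replicate 1, 2 or 4 or SLA Ti replicate 4. Turned Cu replicate 3 was the highest copper library of COL1A1, and without it the value was -4.45 ± 0.92. ALPL, the alkaline phosphatase that starts mineralization, had 0.431, 0.195, 3.95 and 0.172 CPM in Turned Cu, against 6.33, 19.1, 24.2 and 21.3 CPM in SLA Ti, and fell by 4.00 ± 0.91 (adjusted p = 0.00453) with no overlap, and the value was -5.93 ± 1.15 without Turned Cu replicate 3.

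The transcription factors of the osteoblast line differed in how clearly they fell. DLX5 fell to a ratio of 0.0260 (counting interval 0.00313 to 0.0948), from 2 counts in Turned Cu and 266 in SLA Ti. SP7, needed for osteoblasts to mature, had 0.718, 0.390, 2.42 and 0.172 CPM in Turned Cu and 0.921, 8.03, 13.1 and 10.2 CPM in SLA Ti and fell by 2.87 ± 0.92 (adjusted p = 0.0278), a call lost without SLA Ti replicate 3 or 4 or Turned Cu replicate 2 or 4, and the value was -3.89 ± 1.24 without Turned Cu replicate 3. RUNX2, the master factor, had 3.88, 1.56, 3.18 and 2.24 CPM in Turned Cu and 5.49, 6.05, 5.60 and 5.33 CPM in SLA Ti. The groups did not overlap, yet the difference of -1.0 ± 0.43 did not pass (adjusted p = 0.0883), though it did without Turned Cu replicate 1 (adjusted p = 0.0403) and without the filter (adjusted p = 0.0222). Late matrix proteins did not pass. IBSP had 15.1, 7.22, 10.4 and 27.9 CPM in Turned Cu and 1.73, 44.4, 128 and 40.3 CPM in SLA Ti (-0.81 ± 1.13, adjusted p = 0.628), BGLAP differed by -3.08 ± 1.4 (adjusted p = 0.108) and SPP1 by -0.50 ± 0.92 (adjusted p = 0.722). DESeq2 called BGLAP (adjusted p = 0.0309), as did the fit of the 8 libraries alone. The 1 osteoblast-list gene that rose was the vitamin D receptor VDR (2.86 ± 0.67, adjusted p = 0.00522), which immune cells also express and which is named after its values were seen. The summed level of the list was 1918 CPM in SLA Ti replicate 1 and 11840 to 12794 CPM in SLA Ti replicates 2 to 4, against 415 to 2900 CPM in Turned Cu.

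Osteocytes, the cells embedded in bone, were represented by 8 tested genes, of which 5 fell and 0 rose. DMP1, a mineralization protein of osteocytes, had 0.287, 0.390, 8.4 and 3.96 CPM in Turned Cu and 1.11, 43.7, 130.2 and 34.5 CPM in SLA Ti and fell by 3.71 ± 1.25 (adjusted p = 0.0343). Its call was lost in all leave-one-out fits but that without SLA Ti replicate 1. IRX5 fell by 3.57 ± 0.82. The number that fell was 3 without any 1 Turned Cu library or SLA Ti replicate 3. SOST, the osteocyte inhibitor of Wnt signals, had 1, 0, 6 and 0 counts in Turned Cu replicates 1 to 4 and 1, 6, 4 and 4 in SLA Ti replicates 1 to 4, too few to be tested. Osteoclast genes were called in a share near that of all genes tested, 27.3% against 31.5%, and those called rose. CTSK, the collagen-cutting protease of osteoclasts, had 286, 465, 234 and 299 CPM in Turned Cu and 32.3, 261, 193 and 121 CPM in SLA Ti and did not pass (1.11 ± 0.67, adjusted p = 0.226). Of 11 tested osteoclast genes 3 rose and 0 fell, namely the kinase SRC (1.21 ± 0.31), OSTM1 (1.83 ± 0.49) and the proton pump subunit ATP6V1B2 (1.03 ± 0.29), all of which other cells express too. That number was 0 without Turned Cu replicate 3 and 1 without Turned Cu replicate 1 or SLA Ti replicate 2. The call of ATP6V1B2 was lost in every leave-one-out fit but that without SLA Ti replicate 3.

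Genes of connective tissue mostly fell, and those of cartilage fell in part. ACAN, the large proteoglycan of cartilage, had 0.574, 0, 3.44 and 1.72 CPM in Turned Cu and 13.2, 88.0, 26.5 and 91.3 CPM in SLA Ti and fell by 5.33 ± 1.13. COL11A1 and the cartilage factor SOX9 fell by 4.48 ± 0.72 and 3.38 ± 0.95. The values of ACAN and SOX9 were -6.02 ± 1.18 and -4.17 ± 0.91 without SLA Ti replicate 3, and that of SOX9 without Turned Cu replicate 3 was -5.37 ± 1.17. SOX6, the partner of SOX9, fell to a ratio of 0.0283 (counting interval 0.00341 to 0.103). Of 13 tested cartilage genes 4 fell, and MATN1, a matrix protein, rose by 1.95 ± 0.46. That is 38.5% called, near the 31.5% of all genes tested. The summed level of the cartilage list was 430 to 736 CPM in Turned Cu and 153 to 803 CPM in SLA Ti, so the sum was not lower beside copper. Of 30 tested fibroblast and matrix genes 24 fell and 0 rose, with a median of -2.54, and 24 of 25 copper changes remained. BGN, a proteoglycan of bone and skin, had 26.7, 43.5, 50.9 and 48.2 CPM in Turned Cu and 186, 227, 175 and 189 CPM in SLA Ti and fell by 2.22 ± 0.34 (adjusted p = 4.97e-04). PDGFRA, a receptor of fibroblasts, fell by 3.32 ± 0.52, and the microfibril proteins FBLN1 and FBLN2 by 6.68 ± 1.18 and 4.70 ± 0.58. Without Turned Cu replicate 3 the fit gave FBLN1 a value of -9.97 ± 2.26, but the remaining Turned Cu libraries held 0 counts. The size of that fall was therefore not measured. MFAP4, a microfibril protein, had 0 counts in Turned Cu and 6.41, 3.09, 4.06 and 2.36 CPM in SLA Ti, at least 35.8-fold lower in Turned Cu.

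Enzymes that cut matrix split into rises and falls. MMP3, the protease stromelysin that inflamed stroma releases, had 8.90, 14.4, 8.91 and 36.7 CPM in Turned Cu, against 0, 0.0987, 0 and 0 CPM in SLA Ti. All 3 SLA Ti counts of MMP3 came from replicate 2. The ratio of Turned Cu over SLA Ti was 483 with a counting interval of 164 to 2351, which covers counting error only, and the rise passed the test (adjusted p = 1.31e-04). MMP13, the collagenase of bone and cartilage, had 162, 189.9, 127 and 381 CPM in Turned Cu and 51.4, 252, 489.7 and 171 CPM in SLA Ti and did not pass (0.35 ± 0.60, adjusted p = 0.699). ADAM12 fell by 2.57 ± 0.38, ADAMTS9 by 4.30 ± 0.74 and ADAMTS12 by 3.20 ± 0.49. Of 24 tested proteases and inhibitors 5 rose, 11 fell and 8 did not pass, and all 15 copper changes remained. The number that rose was 2 without Turned Cu replicate 1 and 3 without SLA Ti replicate 2.

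Signals that instruct bone and matrix cells fell in part. Of 31 tested BMP and TGF-beta genes 11 fell and 2 rose. TGFB3, a ligand, had 0.287, 0.585, 1.66 and 0.344 CPM in Turned Cu and 7.64, 15.3, 24.4 and 11.6 CPM in SLA Ti and fell by 4.36 ± 0.46 (adjusted p = 5.46e-05). LTBP1 and LTBP2, which hold latent TGF-beta in the matrix or bind there, fell by 3.87 ± 0.43 and 5.68 ± 0.97, the co-receptor TGFBR3 by 4.24 ± 0.61 and the BMP receptor BMPR1A by 3.48 ± 0.58. The value of LTBP2 was -4.33 ± 0.59 without SLA Ti replicate 1 and -6.44 ± 0.98 without SLA Ti replicate 3, and that of BMPR1A was -4.50 ± 0.58 without Turned Cu replicate 4. Of 24 tested Wnt genes 12 fell and 0 rose, and 7 fell without Turned Cu replicate 1. The Wnt receptors FZD1 and FZD4 fell by 2.88 ± 0.41 and 5.36 ± 0.84, the co-receptor LRP6 by 1.70 ± 0.40, LRP4 by 1.94 ± 0.52 and the secreted DKK3 by 4.33 ± 1.07. The value of FZD4 was -4.35 ± 0.63 without SLA Ti replicate 1, and that of DKK3 was -5.61 ± 1.32 without Turned Cu replicate 4.

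Most tested genes of the vessel wall fell. CDH5, the cadherin that seals endothelial cells to each other, had 1.44, 3.12, 2.04 and 2.41 CPM in Turned Cu and 25.9, 27.4, 10.6 and 7.16 CPM in SLA Ti and fell by 2.87 ± 0.48 (adjusted p = 7.46e-04). TIE1 and FLT4, endothelial receptors, fell by 3.35 ± 0.61 and 5.33 ± 0.96. STAB2, the scavenger receptor of marrow and liver sinusoids, had 0 counts in all 4 Turned Cu libraries and 80.5, 8.42, 3.24 and 4.04 CPM in SLA Ti, at least 238-fold lower in Turned Cu, or at least 50.7-fold without SLA Ti replicate 1. CLEC14A was at least 18.5-fold lower. Of 21 tested endothelial genes 13 fell and 2 rose, and all 15 were copper changes. The 2 that rose, PECAM1 (2.69 ± 0.60) and KDR (1.62 ± 0.54), are named after their values were seen, and PECAM1 is also carried by leukocytes and platelets. The rise of PECAM1 was 3.58 ± 0.50 without SLA Ti replicate 3. The call of KDR was lost in every leave-one-out fit but that without Turned Cu replicate 2, with adjusted p up to 0.205. It was also lost with terms for the tibial end and leg (adjusted p = 0.0597), with the 8 libraries alone (adjusted p = 0.0824) and without ribosomal and mitochondrial genes (adjusted p = 0.0501). The summed level of the list was 628 to 1220 CPM in Turned Cu and 247 to 604 CPM in SLA Ti. Most of the Turned Cu sum was PECAM1, at 904, 567, 947 and 447 CPM in Turned Cu replicates 1 to 4. In SLA Ti replicates 1 to 4 PECAM1 stood at 43.6, 46.5, 410 and 77.3 CPM. The sum therefore does not describe the endothelial genes that fell. Of 12 tested genes of smooth muscle and pericytes 8 fell and 0 rose, with PDGFRB at -2.77 ± 0.41 and NOTCH3 at -2.16 ± 0.49. ADIPOQ, the hormone of fat cells, had 0.287, 0.390, 0.891 and 0.516 CPM in Turned Cu and 216, 13.0, 40.5 and 16.2 CPM in SLA Ti, highest in replicate 1, and fell by 6.43 ± 0.74 (adjusted p = 9.99e-05). Of 7 tested adipocyte genes 3 fell, or 1 without SLA Ti replicate 1 or Turned Cu replicate 1. RYR1, a calcium channel of skeletal muscle, rose by 2.43 ± 0.76 (2.22 ± 0.91 without the block, adjusted p = 0.0735), at no more than 21.3 CPM, a call lost in every leave-one-out fit but those without Turned Cu replicate 1 or SLA Ti replicate 3. Of 6 tested muscle genes 3 rose and 0 fell, or 1 without Turned Cu replicate 3 or SLA Ti replicate 2.

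Mitochondrial and cell death genes complete the account. All 13 tested transcripts of the mitochondrial genome rose, with a median of 2.68, but only 6 were copper changes, and those 6 remained. Against Sham their median was 1.81 and 6 passed. ND5, a subunit of respiratory complex I, had 5905, 27103, 4206 and 16659.5 CPM in Turned Cu and 1097, 1310.5, 1129.8 and 3695 CPM in SLA Ti and rose by 2.75 ± 0.63 (adjusted p = 0.00467). With Turned Cu replicates 1 and 3 alone, the distal sites, 0 of the 13 passed with edgeR, and ND5 differed by 1.91 ± 0.68 (adjusted p = 0.0573). Of 26 nuclear genes for the respiratory chain 2 rose, NDUFA2 (1.55 ± 0.36) and SDHB (1.0 ± 0.35), the call of SDHB being lost without any 1 library other than Turned Cu replicate 3, and the median was 0.34. That is 7.69% called, below the 31.5% of all genes tested. Protein lipoylation is the process named as a target in copper-induced cell death. Of 7 tested genes of that list 1 rose, the factor MTF1 described above, and the lipoylated subunits DLAT (0.84 ± 0.31, adjusted p = 0.0519) and DLST (0.21 ± 0.29, adjusted p = 0.622) and the pyruvate dehydrogenase subunit PDHA1 (0.63 ± 0.29) did not pass. The share called in that list was 14.3%, also below that of all genes. Of 17 tested cell death genes 10 rose and 1 fell, and 5 or 6 rose without Turned Cu replicate 1 or 2 or SLA Ti replicate 1 or 2. GSDMD, which forms pores in dying cells, had 59.7, 36.9, 35.5 and 54.7 CPM in Turned Cu and 3.72, 3.29, 13.6 and 4.34 CPM in SLA Ti and rose by 2.98 ± 0.45 (adjusted p = 4.46e-04). The TNF receptors TNFRSF1A and TNFRSF1B rose by 2.26 ± 0.32 and 2.50 ± 0.58 (3.15 ± 0.57 for TNFRSF1B without SLA Ti replicate 3), the death promoter BCL2L11 by 2.24 ± 0.47 and the survival factor MCL1 by 2.12 ± 0.46. Of 19 cytosolic ribosomal protein genes 0 passed with edgeR, and DESeq2 called 1 lower.

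**Figure D5:**
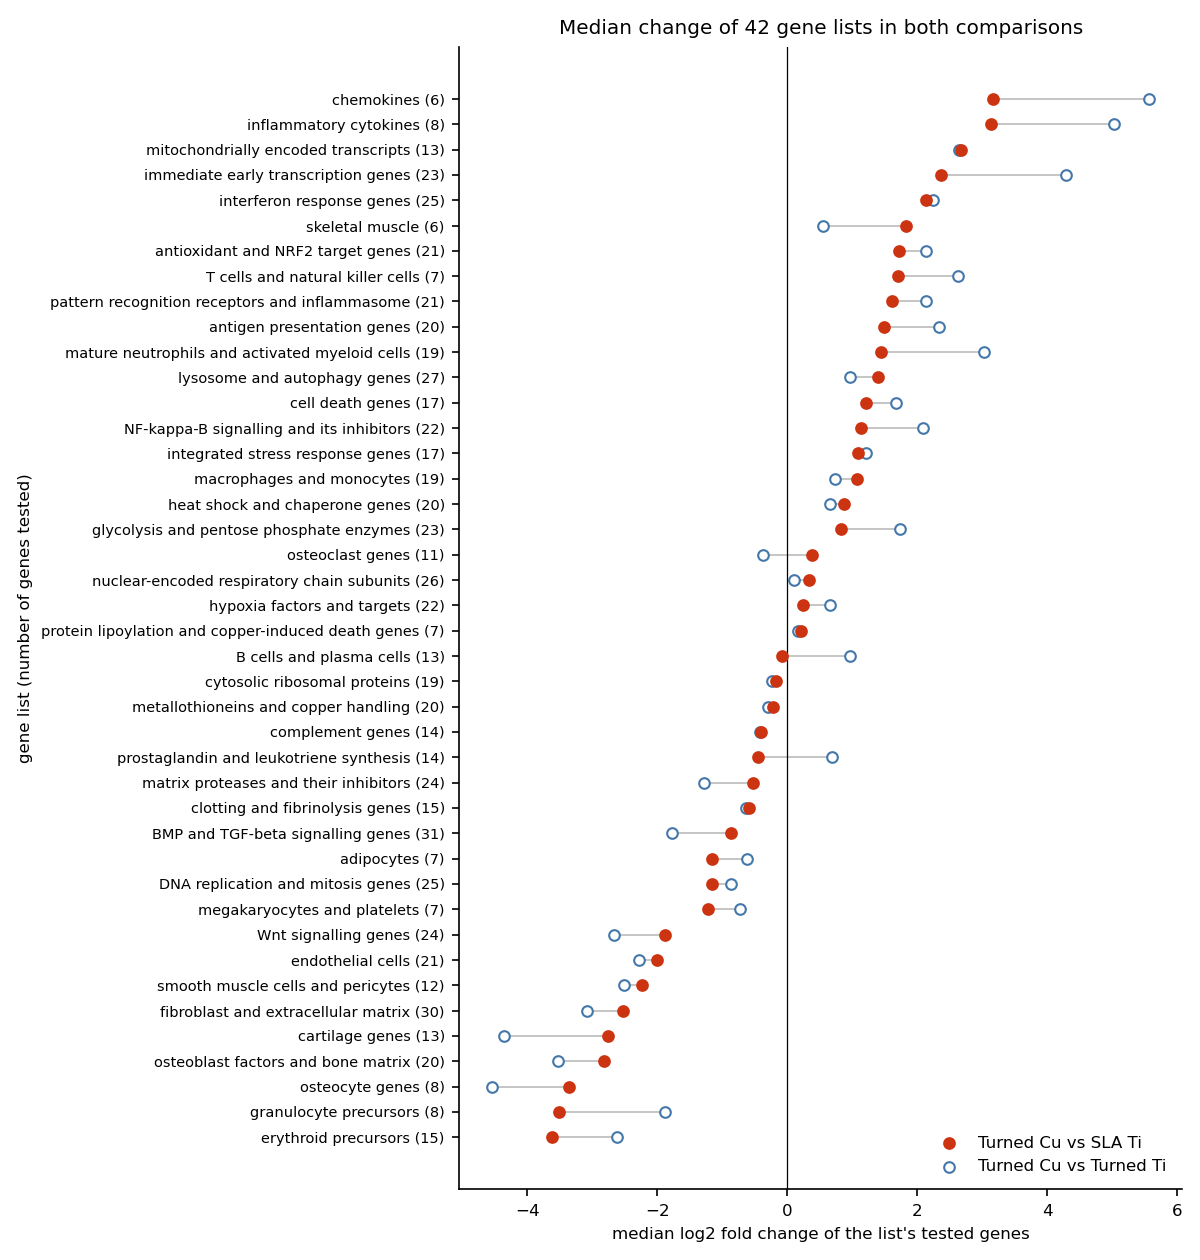
Median log2 fold change of the tested genes of 42 lists in Turned Cu against SLA Ti (red) and in Turned Cu against Turned Ti (open blue), sorted by the value against SLA Ti. The gap between the symbols is wide for chemokines (3.17 and 5.57) and cytokines (3.14 and 5.04) and narrow for interferon response genes (2.14 and 2.24) and antioxidant genes (1.72 and 2.13), and the comparisons share the Turned Cu libraries.

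Across all lists the medians against SLA Ti and against Turned Ti stood side by side as follows. Immediate early genes had 2.37 against SLA Ti and 4.30 against Turned Ti, neutrophil genes 1.45 and 3.03, and glycolysis genes 0.82 and 1.73. Heat shock genes had 0.88 and 0.65, lysosome genes 1.39 and 0.97, and mitochondrial transcripts 2.68 and 2.64. Fibroblast genes had -2.54 and -3.08, osteoblast genes -2.82 and -3.54, and erythroid genes -3.63 and -2.62. These differences between comparisons were not tested beyond the comparison of SLA Ti with Turned Ti. The authors' deposited table lists 4773 genes for Turned Cu and SLA Ti past its limits of an unadjusted p of 0.05 and a 2-fold difference. Of these 2531 were higher and 2242 lower in Turned Cu. The calls made here rest on an adjusted p without a fold limit, so the counts are not alike. At a deposited q-value under 0.05, without a fold limit, the authors' table holds 3439 genes. For Turned Cu replicates 2 and 4 alone, the authors' deposited table lists 3710 genes by the unadjusted p and fold limits, 1215 higher and 2495 lower, and 1952 with a q-value under 0.05.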

How the data were processed

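Total RNA of 16 sites in 4 rabbits was sequenced as stranded total RNA libraries, per the labels' protocols, with 4 libraries per kind of site. The authors deposited a gene table with estimated counts per gene, RPKM values, log2 fold changes, p-values and q-values. The submitters' processing notes name STAR 2.7.1a and Cufflinks 2.2.1, while no source used here gives a genome build. The counts are called estimated because 191 values of 0 stood beside an RPKM above 0. The deposited log2 fold changes ran SLA Ti over Turned Cu, opposite in sign to the fit for 4737 of 4740 kept genes over 2-fold. They are used for the counts of the authors' table alone. Coordinates are those of the gene table.

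Estimated counts were rounded and tested with edgeR 4.0.16 in R 4.3.3 (quasi-likelihood F test, two-sided) on all 16 libraries, with group and rabbit as terms, TMM scaling, filterByExpr at a minimum count of 10 and Benjamini-Hochberg adjustment over 11617 of 29587 genes, of which 8913 had a symbol. Symbols came from the table for 14537 genes, from RefSeq descriptions for 69 and from full names for 30, and 14951 stayed unnamed. The replicate number is the rabbit, so it pairs sites of the same animal. Same-rabbit deviations of Turned Cu and SLA Ti correlated at 0.13, 0.22, 0.13 and 0.04 in rabbits 1 to 4. No 2 libraries were identical (0 pairs). The fit was also run on simulated data with changes planted in Turned Cu. Those data held no rabbit effect and no deviating library, so that run does not cover such conditions.

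Named genes were up to 12 of the highest and 12 of the lowest log2 fold changes with the same sign in all 4 rabbits, up to 5 members of smallest p per list, a fixed set of marker genes, 8 copper changes that did not remain and 6 differences from SLA Ti only. PECAM1, KDR, VDR, IL1A and CXCL5 were added after their values were seen. COX17, C1QB and CX3CL1 are named without values, also after they were seen. The members and the 42 lists were chosen with earlier results of these data known. A floor for a group at 0 is 3 counts over the group. Intervals and floors cover counting error only. Alternatives were no block, RLE scaling, DESeq2 1.42.0, no filter, the 8 libraries alone, no ribosomal or mitochondrial genes, tibial end and leg as terms, each library left out, and Turned Cu replicates 2 and 4 or 1 and 3 alone. Some results are not reported here.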

Additional observations from a re-analysis of the deposited data

Results flagged for a closer look

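In 26 of 446 groups of 4 libraries tested, 1 library lay far from the other 3 (Dixon's test at its 95% critical value), and chance flags about 1 in 20 groups. Where the other 3 libraries stand at 0, the test flags the remaining library whatever its value, so that rate does not apply. This holds for ATP7B, BGLAP, FBLN1 and PTGS1 in Turned Cu replicate 3 and for MMP3 in SLA Ti replicate 2. Of these 13 were Turned Cu libraries, 6 were SLA Ti replicate 1, 3 were SLA Ti replicate 2, 3 were SLA Ti replicate 3 and 1 was SLA Ti replicate 4.

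SLA Ti replicate 1 stood low in summed CPM of osteoblast factors and bone matrix (1920 against 11800 to 12800 in the other SLA Ti libraries) and of cartilage genes (153 against 634 to 803). It was also low in CPM of ADAM12 (17.8), COL11A1 (28.6) and LOX (2.53) and high in LTBP2 (250). SLA Ti replicate 2 was low in LCN2 (40.7 CPM) and high in LTBP1 (24 CPM), and was the sole SLA Ti library with reads of MMP3 (0.0987 CPM). SLA Ti replicate 3 was high in CLEC5A (11.0 CPM) and TYROBP (22.6 CPM) and low in PLK1 (3.44 CPM), and SLA Ti replicate 4 was high in ND5 (3690 CPM).

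In Turned Cu, replicate 3 stood high in the summed CPM of chemokines (3890 against 2320 to 2360), replicate 1 in that of interferon response genes (2960 against 1640 to 1790) and replicate 2 in that of macrophages and monocytes (2400 against 1180 to 1300). Turned Cu replicate 3 was the sole Turned Cu library with reads of ATP7B (1.15 CPM), BGLAP (2.80 CPM), FBLN1 (0.637 CPM) and PTGS1 (0.637 CPM), and was low in TMEM62 (0.637 CPM). Turned Cu replicate 2 was low in BAG3 (26.3 CPM) and HSP90AA1 (821 CPM), replicate 4 in GAPDH (362 CPM) and SLC7A5 (236 CPM), and replicate 1 was high in ITGB7 (16.6 CPM).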

How the results depend on the processing

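Of 181 genes tested for this, 159 were called in Turned Cu against SLA Ti, 96 of them under all 17 alternatives, 63 were lost under at least 1, and 0 reversed. Over the fits that left out 1 library, the genes called in Turned Cu against SLA Ti numbered 2541 to 3587 (3660 with all libraries), the higher ones 947 to 1595 (1859) and the lower ones 1318 to 1992 (1801). The copper changes that remained numbered 2216 to 3067 (3098), or 53.9% to 72.5%. Without the replicate block 3598 genes were called and 3063 copper changes remained, so the block moved neither count by over 1.5 times. It changed the calls of the genes for which a value without the block is given and no other named gene. With Turned Cu replicates 2 and 4 alone, an alternative chosen after seeing the data, 2149 genes were called, 725 of them higher, and 1716 copper changes remained. In SLA Ti against Turned Ti, where 1 gene was called, the count was 0 without the block, 49 with DESeq2, 193 without the filter and 0 to 2 with 1 library left out. The cause of these shifts was not tested. RLE scaling, DESeq2 and leaving out ribosomal and mitochondrial genes moved the median of all genes by -0.11, -0.11 and -0.14 on the log2 scale. Depth limits genes with few reads in Turned Cu, where a missing call does not show equal levels.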
